A study of Homo sapiens with 8 samples.

Results

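Branch site clusters recovered with an antibody to SF3A2 and with an antibody to Flag-tagged SF3B1 were compared in wild-type K562 cells. The members are all clusters in either of the 2 tables for these cells, 92160 of the 122826 clusters in the 4 tables of the series. They were matched between tables by the authors' cluster identifier, and branch points were matched by chromosome and position on hg19. K562 is an erythroleukemia line. The Flag library is labelled as SF3B1-3xFlag WT and the SF3A2 libraries as WT, and the deposited workbook's name gives cells expressing the tagged protein for all of its tables. Cells were grown in IMDM with serum, and HMW extracts were treated with nucleases before immunoprecipitation. A note on read layout names HEK293 as the source of RNA where all other labels name K562, and since the tables name no genes, the cell type could not be checked against markers. The SF3A2 table stands for 3 libraries and the Flag table for 1, and each is a single list. K700E cells, whose Flag library is labelled as SF3B1-3xFlag K700E, are used only for values set side by side. The labels do not say whether untagged SF3B1 remains or how many clones were used. Libraries without antibody and of input were not analysed here.

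The U2 snRNP recognises the intron branch site by pairing U2 snRNA with it, leaving the branch point adenosine bulged. SF3A2 belongs to the SF3a subcomplex of the U2 snRNP, and SF3B1 is the large scaffold of the SF3b subcomplex, which closes around the duplex and the bulged adenosine. The SF3A2 antibody recovers U2 complexes whether or not their SF3B1 is tagged, whereas the Flag antibody selects the tagged protein. The branch site lies a short way upstream of the 3′ splice site, at the downstream end of the intron. The 5′ splice site lies at the other end of the intron, where it is bound first by U1 snRNA and later by U6 snRNA. In internal exons the 3′ splice site of one intron and the 5′ splice site of the next are separated by the length of the exon.

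The SF3A2 table held 160905 branch points in 86103 clusters, compared with 124989 in 69448 for Flag. A cluster in both tables had the same start and end in each. No read number accompanies a position, and the depth of each library is therefore unknown. With 1 table per group no value has a replicate error and no test was possible. Bracketed ranges are 95% Wilson intervals unless named otherwise and cover counting error only.

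Most clusters of tagged SF3B1 were also clusters of SF3A2. Both tables listed 63391 clusters, which is 91.3% of the Flag clusters (91.1 to 91.5%) and 73.6% of the SF3A2 clusters (73.3 to 73.9%). A further 22712 were listed with SF3A2 only, 24.6% of all members, and 6057 with Flag only, 6.57%. The larger table thus contained nearly all of the smaller one. By branch point, 98540 positions of each table were listed in the other, 61.2% of the SF3A2 branch points (61.0 to 61.5%) and 78.8% of the Flag branch points (78.6 to 79.1%).

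The cluster identifiers carried a 3′ splice site mark, a 5′ splice site mark or no mark, and the tables differed most in the 5′ splice site clusters. SF3A2 listed 5851 clusters with the 5′ mark, 6.80% of its clusters (6.63 to 6.97%). Flag listed 589, or 0.848% (0.783 to 0.919%). The SF3A2 table therefore held 9.93 times as many of these clusters. For clusters with the 3′ mark, the ratio was 1.12, with 52502 against 47026. For unmarked clusters it was 1.27, with 27750 against 21833. The marks are the authors', and the labels do not say how they were assigned.

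Of the 5871 clusters with the 5′ mark in either table, 5282 were listed with SF3A2 only, or 90.0% (89.2 to 90.7%), against 24.6% of all members. Both tables listed 569 of them, and 20 were listed with Flag only, or 0.341% (0.221 to 0.526%), against 6.57% of all members. Almost every 5′ splice site cluster of the Flag table was thus also in the SF3A2 table, at 96.6% (94.8 to 97.8%). In the other direction 9.72% of the SF3A2 clusters with this mark were in the Flag table (8.99 to 10.5%). Among 3′ splice site clusters, 43380 were shared, 9122 were SF3A2 only (16.2%, 15.9 to 16.6%) and 3646 were Flag only (6.49%, 6.29 to 6.70%). For unmarked clusters the numbers were 19442, 8308 (27.6%, 27.1 to 28.1%) and 2391 (7.93%, 7.63 to 8.24%). The odds of SF3A2-only over shared listing were 44.1 times higher for the 5′ than for the 3′ mark (40.4 to 48.3, log-normal interval). Among clusters also found in a K700E table the odds ratio of the 5′ against the 3′ mark was 27.8, and with at least 3 branch points it was 95.6. The SF3A2 clusters with the 5′ mark were in the Flag table in 15.4% and 36.6% of cases in these subsets. Over all clusters, the odds of SF3A2-only over shared listing were 2.03 times higher for unmarked than for 3′ marked clusters (1.96 to 2.10).

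**Figure D1:**
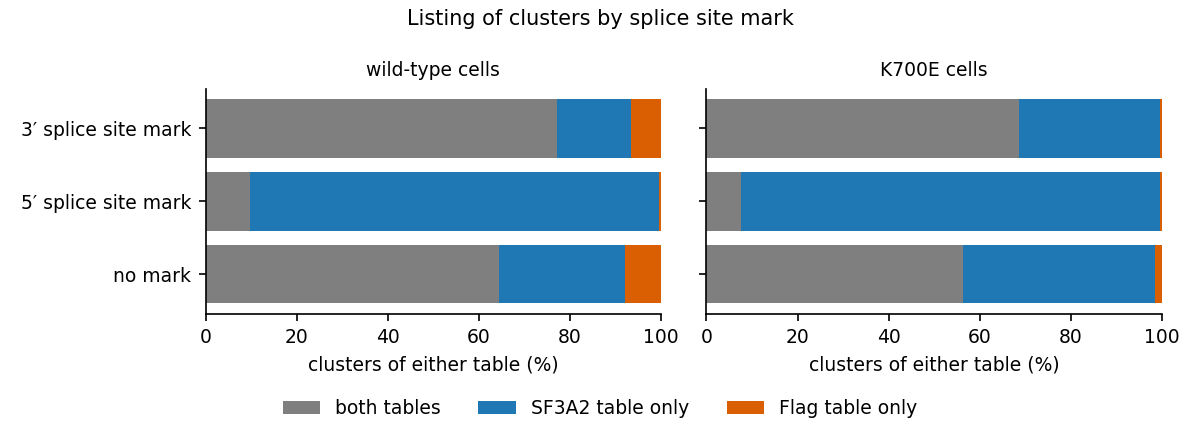
Share of clusters (%, horizontal axis) listed in both tables, in the SF3A2 table only or in the Flag table only, for clusters with the 3′ splice site mark, the 5′ splice site mark or no mark, in wild-type (left) and K700E cells (right). In wild-type cells 90.0% of clusters with the 5′ mark were SF3A2 only, against 16.2% with the 3′ mark.

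Grouped only by the presence of the 3′ mark, the classes differed as well. The 3′ mark was carried by 68.4% of shared clusters (68.1 to 68.8%), 60.2% of Flag-only clusters (59.0 to 61.4%) and 40.2% of SF3A2-only clusters (39.5 to 40.8%). Clusters with the 5′ mark made up 23.3% of the SF3A2-only class. Without them the 3′ mark was carried by 52.3% of that class (51.6 to 53.1%), still below the other classes.

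SF3A2 clusters held 1.87 branch points on average and Flag clusters 1.80. From 1 to 3 branch points in the SF3A2 table, the share of clusters also in the Flag table rose from 54.0% to 96.0%, and at 4 or more it was 95.5%. The marks were therefore compared at equal numbers. With 1 branch point, 64.8% of 3′ splice site clusters of the SF3A2 table were also in the Flag table, against 5.93% of 5′ splice site clusters (5.25 to 6.68%) and 52.3% of unmarked clusters. At 2 branch points the shares were 89.6%, 12.9% and 79.6%, in the same order. At 3 they were 98.2%, 35.5% (146 of 411) and 94.3%. The gap between the marks was thus present at each number. Clusters with the 5′ mark were also mostly of a single branch point, 71.8% in SF3A2 and 86.4% in Flag, against 39.8% and 45.4% for the 3′ mark.

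**Figure D2:**
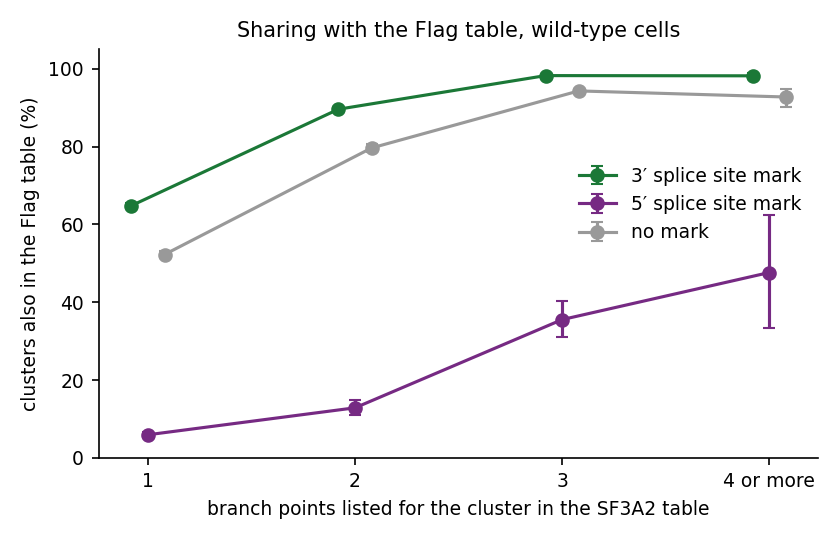
Share of SF3A2 clusters of wild-type cells also listed in the Flag table (%, vertical axis) by the number of branch points listed for the cluster in the SF3A2 table (horizontal axis), for the 3 kinds of mark; bars are 95% Wilson intervals. The 5′ splice site clusters lie below the others at every number, from 5.93% at 1 branch point to 47.6% at 4 or more.

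The 5′ splice site clusters were wider than the rest. Their median span was 39 nt (quartiles 36 and 41 nt), against 34 nt for the 3′ mark (33 and 37 nt) and 34 nt for unmarked clusters (32 and 37 nt). A span over 38 nt was found in 51.0% of clusters with the 5′ mark (49.7 to 52.3%) and 14.9% of those with the 3′ mark. The difference in listing was found at most spans: of 5′ splice site clusters of 30 to 34 nt, 91.5% were SF3A2 only, and of those of 39 to 44 nt, 90.9%. For the 3′ mark the same shares were 14.4% and 21.9%. The 34 clusters of 15 to 19 nt with the 5′ mark were an exception, with 10 SF3A2 only and 23 shared.

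Within the 3′ splice site clusters, the median span was 35 nt for either single-table class and 34 nt for shared clusters. Single-table listing was raised at both narrow and wide spans. At 25 to 29 nt, 35.2% were SF3A2 only and 8.71% Flag only, against 14.4% and 5.42% at 30 to 34 nt. Spans over 38 nt made up 12.5% of the shared clusters (12.2 to 12.8%), 22.0% of the SF3A2-only clusters (21.2 to 22.9%) and 24.96% of the Flag-only clusters (23.6 to 26.4%). Among unmarked clusters a separate group of narrow clusters appeared. Of 3465 clusters spanning 15 to 19 nt, 3373 carried no mark. Spans under 25 nt accounted for 19.6% of unmarked SF3A2-only clusters (18.7 to 20.5%), 11.0% of unmarked shared clusters and 4.89% of unmarked Flag-only clusters (4.10 to 5.83%). In K700E cells the order was the reverse, with 4.98% of unmarked SF3A2-only clusters (4.67 to 5.31%), 10.5% of unmarked shared clusters and 50.2% of unmarked Flag-only clusters (46.1 to 54.2%, 291 of 580). In wild-type cells such spans were rare with the 3′ mark, at 72 of 56148 clusters.

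**Figure D3:**
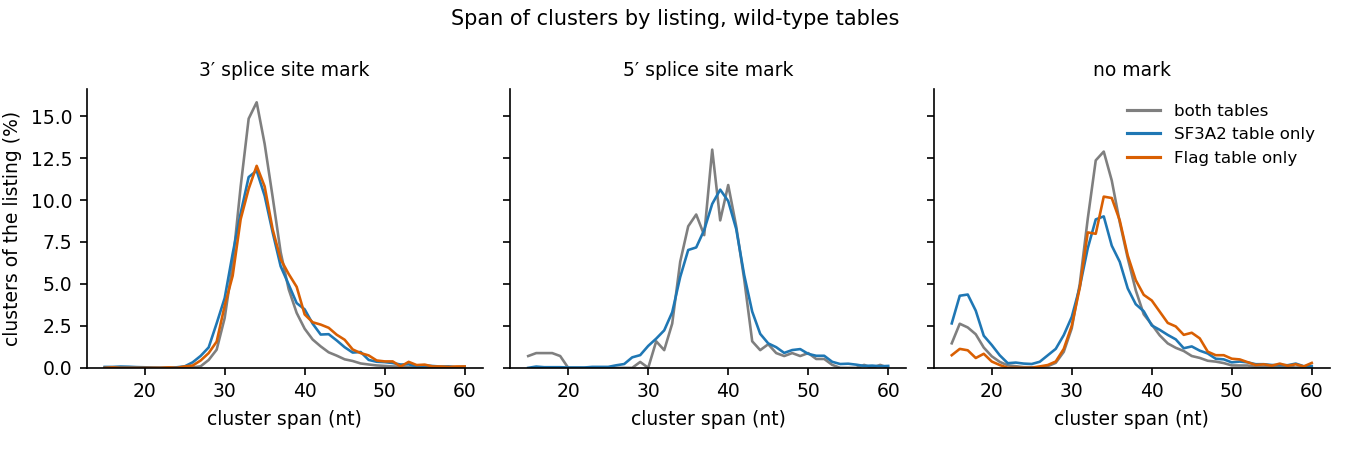
Cluster span in nt (horizontal axis) as a share of the clusters of each listing (%, vertical axis), for 3′ splice site, 5′ splice site and unmarked clusters; the 20 Flag-only clusters with the 5′ mark are not drawn. Clusters with the 5′ mark peak near 39 nt instead of 34 nt, and a second group of 15 to 19 nt appears among unmarked clusters.

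Spacing along the chromosome also set the 5′ splice site clusters apart. In the SF3A2 table the median gap from a cluster to the next was 2426 nt, and 4.06% of gaps were at most 100 nt (3.93 to 4.19%). In the Flag table these values were 3004 nt and 1.38% (961 of 69424). Taking only gaps from one 3′ splice site cluster to the next 3′ splice site cluster, the medians were 2375 and 2635 nt and the close shares 1.05% and 0.724%. Gaps from a 3′ to a following 5′ splice site cluster had a median of 340 nt in SF3A2 and 337 nt in Flag. Short gaps were thus more common beside a 5′ splice site cluster, in either table.

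Of the SF3A2-only clusters, 9.47% lay within 100 nt of a shared cluster (9.09 to 9.85%), against 2.23% of the Flag-only clusters (1.89 to 2.63%). Most of this excess lay in the 5′ splice site clusters, since 28.3% of the SF3A2-only clusters with that mark were so close. Without them the SF3A2-only share was 3.76% (3.49 to 4.05%). Unmarked clusters gave 5.57% for SF3A2 only (5.10 to 6.09%) and 2.76% for Flag only (66 of 2391). With the 3′ mark, 2.10% of SF3A2-only and 1.73% of Flag-only clusters were so close, and these intervals overlapped.

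The 5′ splice site clusters lay mainly on 1 side of a neighbouring 3′ splice site cluster. A mark that follows from the annotated splice site nearby would itself place these clusters, so their position is given as a description. Of the 5871, 3396 lay within 250 nt of the nearest 3′ splice site cluster (57.8%, 56.6 to 59.1%), against 10.4% of 3′ splice site clusters measured to another of their kind and 5.83% of unmarked clusters. The tables carry no strand, so each 3′ splice site cluster was given a direction, towards whichever end was closer to its top-ranked branch point. On the nearer-end side lay 2926 of the 5′ splice site clusters within 250 nt, and on the other side 450, a share of 86.7% (85.5 to 87.8%). For unmarked clusters the share was 32.1% (560 against 1182). For 3′ splice site clusters, measured to another of their kind, it was 49.8% (48.5 to 51.1%). Clusters of this kind that are nearest to each other and face the same way fall on opposite sides. Their share is therefore near even by construction and is no baseline for the 5′ mark. On the nearer-end side, the median gap from the 3′ to the 5′ splice site cluster was 116 nt (quartiles 82 and 155 nt).

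The intervals for SF3A2-only and shared clusters overlapped in this respect. The nearer-end share was 86.9% for SF3A2-only (85.7 to 88.1%) and 84.4% for shared clusters with the 5′ mark (80.0 to 87.9%). The 3′ splice site cluster beside them was mostly shared: it was in both tables in 2286 of 2644 cases for the SF3A2-only clusters (86.5%), compared with 77.3% of all 3′ splice site clusters. The Flag table lacked the 5′ splice site cluster of these pairs by the choice of class, so only the listing of the partner is a result. The partner was in both tables for 89.5% of shared 5′ splice site clusters and 83.6% of unmarked clusters so placed. Counted within each table, 3612 of 52502 SF3A2 clusters with the 3′ mark had a 5′ splice site cluster within 250 nt (6.88%, 6.67 to 7.10%), and 356 of 47026 in Flag (0.757%, 0.683 to 0.839%).

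In the pairs on the nearer-end side, the branch point predicted in the 5′ splice site cluster faced the same way as that of its partner. It lay nearer the side away from the 3′ splice site cluster in all but 152 of 2917 pairs (5.21%, 4.46 to 6.08%). Its median distance was 13 nt from that far side and 25 nt from the side facing the partner. The predicted branch points of a pair were a median of 154 nt apart.

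**Figure D4:**
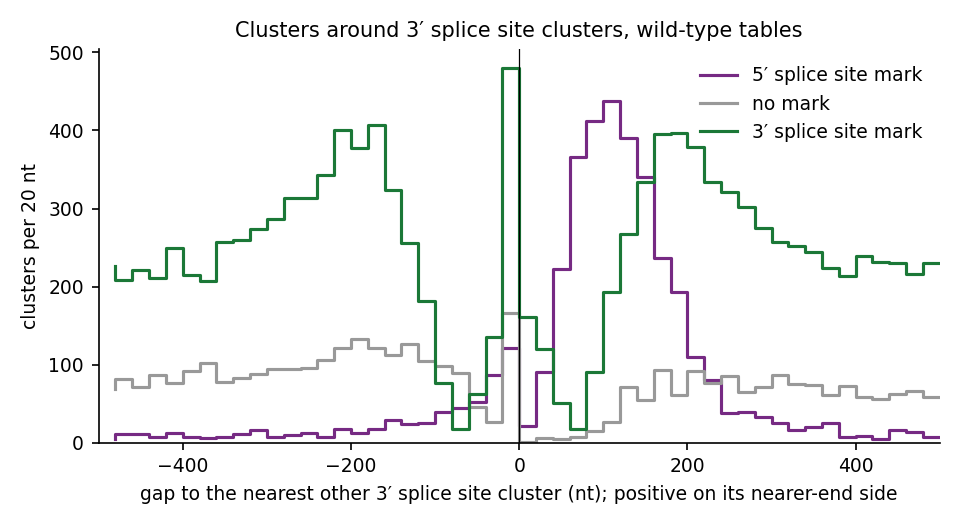
Number of clusters per 20 nt (vertical axis) by the gap in nt to the nearest other 3′ splice site cluster (horizontal axis), positive on that cluster's nearer-end side, for the 3 kinds of mark in the wild-type tables. Clusters with the 5′ mark form a main peak on the positive side, with a median gap of 116 nt within 250 nt. Each mark has a peak just on the other side of 0. At gaps under 20 nt there it holds 480 clusters with the 3′ mark, 166 unmarked and 121 with the 5′ mark. Within 250 nt 3′ splice site clusters lie about equally on both sides, which follows from measuring them to one another.

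On chromosome X the cluster at 11187600 to 11187639 carried the 5′ mark and was listed with SF3A2 only, with a branch point at 11187611. It lay 184 nt from the shared 3′ splice site cluster at 11187823 to 11187854, on its nearer-end side, and was also in the SF3A2 but not the Flag table of K700E cells. On chromosome 7 the cluster at 881752 to 881791 was in both tables with the same branch point, 881779, and lay 177 nt from the shared 3′ splice site cluster at 881536 to 881575. Not every 5′ splice site cluster was so placed. On chromosome 12 the SF3A2-only cluster at 89003 to 89040, with branch points at 89027, 89032 and 89024 in order of rank, lay 755 nt from the nearest 3′ splice site cluster. On chromosome 1 the SF3A2-only cluster at 892454 to 892489 lay 7 nt from a shared 3′ splice site cluster, on its other side.

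Every chromosome counted had more 5′ splice site clusters in SF3A2 than in Flag, with chromosome Y not counted. They made up 3.40% of SF3A2 clusters on chromosome 13 (2.59 to 4.45%), the lowest share, and 9.88% on chromosome 22 (8.65 to 11.3%), the highest. In Flag these chromosomes had 0.348% and 1.90%. SF3A2-only listing as a whole varied less, from 23.2% of clusters on chromosome 21 to 27.2% on chromosome 13. Flag-only listing ranged from 5.15% on chromosome 18 to 7.53% on chromosome 22.

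Intervals of 100 kb were ranked by count, which favours those that hold many clusters. Over all members, 24.6% were SF3A2 only and 6.57% Flag only, and 23.3% of the SF3A2-only clusters carried the 5′ mark. The interval with the most SF3A2-only clusters lay on chromosome 12 from 56.5 to 56.6 Mb, with 33 of 110 clusters, 13 of them with the 5′ mark. The next were on chromosome 9 from 95 to 95.1 Mb, with 30 of 77 clusters and 17 of these with the 5′ mark, and on chromosome 11 from 93.4 to 93.5 Mb, with 29 of 76 and 9. The interval with the most Flag-only clusters, on chromosome 1 from 1.2 to 1.3 Mb, held 9 of 44. It was followed by chromosome 16 from 2.2 to 2.3 Mb with 8 of 51, chromosome 22 from 50.6 to 50.7 Mb with 8 of 43 and chromosome 6 from 83.8 to 83.9 Mb with 8 of 40. Of 11342 intervals that held any cluster, 3909 held a Flag-only cluster and 8057 an SF3A2-only cluster, the larger class. The cluster after a Flag-only one was Flag only in 7.61% of cases (6.97 to 8.31%), slightly above the 6.39% after a shared cluster (6.20 to 6.58%).

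Clusters listed by a single antibody carried few branch points, whatever their mark. In the SF3A2 table, 78.0% of unmarked SF3A2-only clusters had 1 branch point, against 36.5% of unmarked shared clusters. With the 5′ mark these shares were 74.8% and 43.8%. Of SF3A2-only 3′ splice site clusters 80.6% had 1 branch point, against 31.2% of shared clusters in that table. The Flag-only ones had 1 branch point in 90.8% of cases, against 41.6% of shared clusters in the Flag table. The first Flag-only cluster with the 3′ mark on chromosome 1, at 898365 to 898397, had its branch point at 898386, and both K700E tables listed it. On chromosome 7 the one at 720382 to 720414, with the branch point at 720395, was in the SF3A2 but not the Flag table of K700E cells. The first SF3A2-only cluster with the 3′ mark on chromosome 17, at 682000 to 682038, had branch points at 682015 and 682003, and both K700E tables listed it.

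Listing in K700E cells was set beside these classes. Of the SF3A2-only 3′ splice site clusters of wild-type cells, 93.4% were in the SF3A2 table of K700E cells and 45.9% in the Flag table (44.9 to 46.9%). The Flag-only 3′ splice site clusters gave 94.4% and 46.8% (45.2 to 48.5%). The intervals overlapped, so 3′ splice site clusters listed by Flag alone in wild-type cells were not distinguishable from those listed by SF3A2 alone in how often Flag listed them in K700E cells. Shared 3′ splice site clusters were in these tables in 99.5% and 89.5% of cases. With the 5′ mark, 52.8% of the SF3A2-only clusters were in the SF3A2 table of K700E cells (51.5 to 54.1%). In the Flag table of these cells it was 2.40% (2.02 to 2.85%). Of the 20 Flag-only clusters with the 5′ mark, 14 were in the SF3A2 table and 3 in the Flag table. The shared 5′ splice site clusters were in these tables in 88.6% and 31.6% of cases (27.9 to 35.6% for the latter).

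In K700E cells themselves the SF3A2 table listed 4166 clusters with the 5′ mark, against 336 with Flag, a ratio of 12.4. Of the 4186 in either table, 92.0% were SF3A2 only (91.1 to 92.8%), against 37.2% of all clusters of these 2 tables. Those within 250 nt of a 3′ splice site cluster lay on its nearer-end side in 85.7% of cases (84.3 to 87.0%). The excess of 5′ splice site clusters with SF3A2 was therefore found in both genotypes. The SF3A2 table was also the larger of each pair, and the part of table size in the excess was not tested.

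Within shared clusters SF3A2 listed more branch points. The mean was 2.08 in SF3A2 and 1.87 in Flag, 0.218 more per cluster (0.212 to 0.224 by a normal approximation). SF3A2 listed more in 17930 clusters, Flag in 7034, and 38427 had equal numbers. By mark the difference was 0.213 for 3′ splice site clusters (0.206 to 0.221) and 0.714 for 5′ splice site clusters (0.642 to 0.785). In the latter, SF3A2 listed more in 284, Flag in 9, and the numbers were equal in 276. Thus even 5′ splice site clusters seen by both antibodies had their additional branch points mainly in the SF3A2 table.

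The rank of a branch point in one table went with its listing in the other. In shared clusters 80.8% of SF3A2 branch points of rank 1 were also rank 1 in Flag, 8.30% were rank 2, 1.12% rank 3, and 9.83% were not listed (9.60 to 10.1%). At rank 2, 34.9% were not listed in Flag, and at rank 3, 50.8%. For Flag branch points the shares not listed in SF3A2 were 7.71% at rank 1 (7.51 to 7.92%), 22.5% at rank 2 and 38.9% at rank 3. Positions found by a single antibody were thus mostly of lower rank, and at each rank a larger share of SF3A2 than of Flag branch points was unmatched. In clusters with the 5′ mark the imbalance was greater, with 72.7% of SF3A2 branch points of rank 2 not in Flag (67.6 to 77.3%), against 16.4% the other way (9.66 to 26.6%).

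In 59905 shared clusters each table had 1 branch point alone at rank 1, and this position differed in 10272 of them (17.1%, 16.8 to 17.5%). The share was 16.8% with the 3′ mark (16.5 to 17.2%), 17.9% without a mark (17.4 to 18.5%) and 15.9% with the 5′ mark (13.1 to 19.2%, 87 of 548). Where a 5′ splice site cluster was seen by both antibodies, its top-ranked position therefore differed about as often as elsewhere. The median distance was 4 nt with the 5′ and with the 3′ mark. The distances were more spread with the 5′ mark, with quartiles of 2 and 9.5 nt against 3 and 6 nt. Of its 87 differing tops, 26 were at most 2 nt apart and 22 over 10 nt. With the 3′ mark these numbers were 1444 and 513 of 6889. Flag did not list 14.5% of the SF3A2 rank 1 positions in shared 5′ splice site clusters (11.9 to 17.6%), against 9.19% with the 3′ mark (8.93 to 9.47%). Over all marks, the differing positions were a median of 4 nt apart (quartiles 3 and 6 nt), and a distance of exactly 4 nt accounted for 25.1% of them. In 62.6% of these clusters the Flag top was listed at a lower rank in SF3A2 (61.6 to 63.5%), and in 51.6% the SF3A2 top was listed in Flag (50.6 to 52.6%). In 2853 clusters (27.8%) neither table listed the other's top.

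Differing tops had no common direction over all distances, with the SF3A2 position closer to the nearer cluster end in 5196 clusters and the Flag position in 5024. At 1 to 4 nt the SF3A2 position was closer in 55.0% (53.8 to 56.2%, 3476 against 2843). Beyond 4 nt it was closer in 44.1% (42.5 to 45.7%, 1720 against 2181). In K700E cells the corresponding shares were 49.4% (48.1 to 50.7%) and 47.9% (46.4 to 49.4%). The direction at short distances was thus not found there. Beyond 4 nt the Flag position was again closer more often, by a smaller margin (2275 against 2091). The direction and the 4 nt limit were not planned. In wild-type cells the SF3A2 position was closer in 1347 clusters against 1225 at exactly 4 nt, and in 496 against 611 at 5 nt. The limit thus lies where the direction changed in these same data. A 3′ splice site cluster of chromosome 7, from 538230 to 538260, had 538239 at rank 1 in SF3A2 and 538241 in Flag, and each table ranked the other position second. On chromosome X the unmarked cluster at 2635597 to 2635635 had 2635623 as its top in SF3A2 and 2635619 in Flag, again with the order of these positions exchanged. On chromosome 17 the unmarked cluster at 436160 to 436202 had the single position 436177 in SF3A2, which Flag ranked second after 436170.

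**Figure D5:**
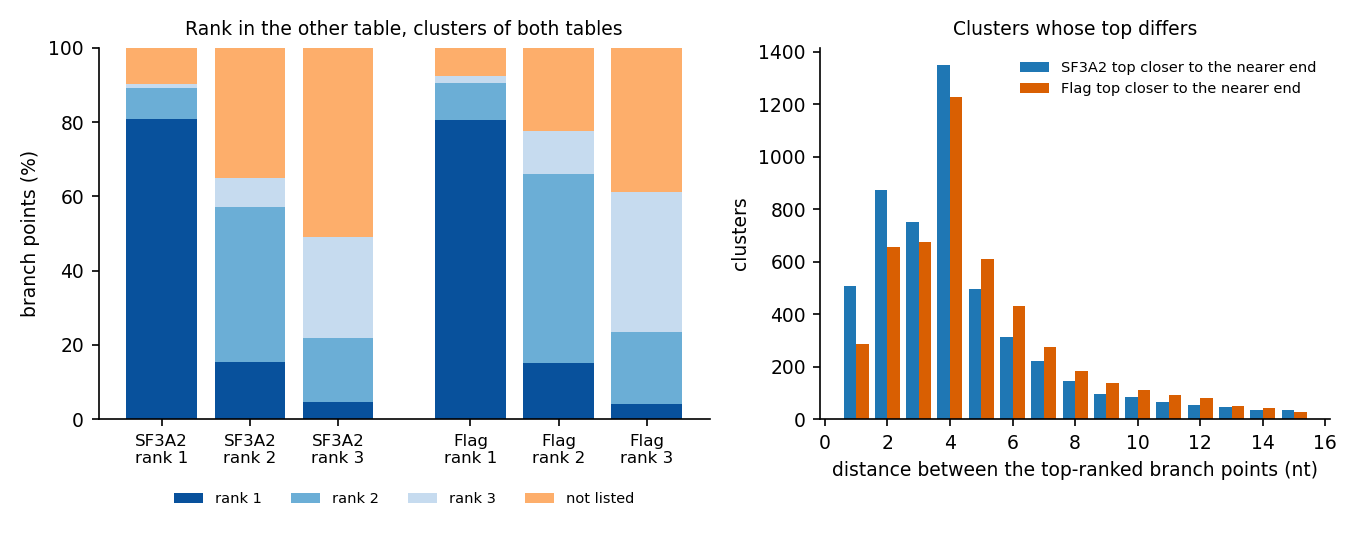
Left, rank that branch points of each rank in one wild-type table had in the other, as a share of branch points (%, vertical axis), in clusters of both tables. Right, number of clusters (vertical axis) with differing top-ranked branch points by the distance between them in nt (horizontal axis, up to 15 nt), split by which table's position was closer to the nearer cluster end; 4 nt is the most frequent distance.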

How the data were processed

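Per the labels, RNA inserts of 24 to 55 nt were sequenced after 11 to 14 PCR cycles. The submitters' processing notes name the tools cutadapt and STAR (2.7.6a) and the build hg19. Cluster calling, pooling of the 3 SF3A2 libraries, branch point prediction and the assignment of splice site marks are not given in the sources used here. Per the file headers, each deposited table gives cluster identifier, chromosome, start, end, branch point and a rank, a score from 1 to 3 by the authors with ties allowed. Span is end minus start. Whether positions count from 0 or 1 is unknown.

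Software was scipy 1.17.1, numpy 2.4.6 and pandas 2.3.3 under Python 3.11.15, with matplotlib 3.10.9 for the plots. Wilson intervals assume independent clusters, although neighbours share genes and transcripts. Members and lists were chosen with earlier results of these data known. The analyses of the 5′ mark were added after the tables were seen. No hg19 annotation or sequence was used here, so the gene lists and the rule for genes gave no result. Named sites are the first of each class by position on chromosomes 1, 7, 12, 17 and X, of which some are printed, plus the top intervals of 100 kb. The 5′ splice site examples followed the same order, chosen after their values were seen. On simulated tables of 20000 clusters, all 2115 differing tops were recovered.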

Additional observations from a re-analysis of the deposited data

How the results depend on the processing

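Of 70 alternatives, 28 gave a value within the 95% interval of the one they replaced. The other 42 are printed here. Matching clusters by any overlap or by a reciprocal overlap of 50%, and leaving out chromosomes X and Y, moved no cluster share out of its interval. Shared clusters had the same start and end in each table, and only 11 of 92136 neighbouring pairs overlapped. Matching by overlap could therefore hardly change these shares. The share of SF3A2 clusters also in Flag was 82.6% with the 3′ mark, 59.6% without it, 79.1% at spans of 30 to 38 nt and 78.3% without 5′ splice site clusters, and for Flag clusters in SF3A2 the first 3 were 92.2%, 89.2% and 92.5%. Branch points shared were 67.6% of SF3A2 and 84.4% of Flag within 2 nt, 77.3% and 91.4% within 5 nt, 59.3% and 73.5% for top ranks only, and 74.6% and 83.3% within shared clusters. The 3′ mark in SF3A2-only clusters was 47.7% among those also in a K700E table, 48.6% at 30 to 38 nt and 52.3% without 5′ splice site clusters; in Flag-only clusters it was 62.3% and 62.9% for the first 2; in shared clusters it was 72.1% at 30 to 38 nt and 69.1% without 5′ splice site clusters. The median span of SF3A2-only clusters without the 3′ mark was 36 nt. Closeness to a shared cluster was 3.68% and 1.01% (SF3A2 only, Flag only) at 50 nt, 20.8% and 8.02% at 200 nt, and 3.76% for SF3A2 only without 5′ splice site clusters. Tops differed in 13.3% by more than 2 nt, in 16.1% of clusters in all 4 tables and in 14.0% at 30 to 38 nt. The difference in branch points per shared cluster was 0.228 without the 3′ mark. At 30 to 38 nt the unmatched shares were 7.13%, 33.5% and 49.9% for SF3A2 ranks 1 to 3 and 5.42% and 21.3% for Flag ranks 1 and 2. For 5′ splice site clusters, added after seeing the data, the share also in Flag was 15.4% among those in a K700E table and 36.6% with at least 3 branch points, the odds ratio against the 3′ mark was 27.8 and 95.6 in these subsets, and the nearer-end share was 85.1% at gaps up to 150 nt. The cause of these changes was not tested. No single SF3A2 library could be left out, since the table pools 3. No paired analysis was possible because the tables carry no replicate numbers. Read depth is unknown and limits what absence from a table can show.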
